A study of Homo sapiens with 8 samples.

Results

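Cytosolic nucleic acid sensors and their adaptors are the proteins by which a cell detects viral or misplaced RNA and DNA. The RIG-I-like receptors RIG-I (gene DDX58), MDA5 (IFIH1) and LGP2 (DHX58) bind double-stranded or otherwise foreign RNA in the cytosol and signal through MAVS, an adaptor on mitochondria. The enzyme cGAS binds DNA and makes the messenger cGAMP, which activates STING (TMEM173) on the endoplasmic reticulum, whereas TLR3 binds double-stranded RNA in endosomes. These branches meet at the kinases TBK1 and IKKε (IKBKE), which phosphorylate the transcription factor IRF3, and IRF3 then switches on interferon genes and a set of early target genes. In epithelial cells this route is one of the first sources of type I and type III interferon, and DDX58, IFIH1, DHX58 and TLR3 are themselves known to be induced by interferon. The 10 genes were found by symbol among 63816 gene entries of the expression table, and each had 1 entry.

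Expression was measured by RNA-seq in 8 samples labelled Caco-2, the name of a line established from a human colorectal adenocarcinoma that shows Siglec-XII at its surface only after transfection. The cells had been transfected either with empty pcDNA3.1 (4 samples) or with a SIGLEC12 copy of that plasmid, from which the whole Siglec-XII protein is made (4 samples). Both groups were made with linearized plasmid and a lipid reagent and were selected with G418, so both carry plasmid DNA and its resistance gene. The series speaks of stable clones, of 3 cultures per condition and, in the methods of the study, of technical replicate libraries, and nothing ties a sample to a separate transfection. The p-values below therefore measure only the spread between these samples, and what Siglec-XII did cannot be told apart from other ways in which the cells of each transfection differ.

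The label was checked on the transfected gene. SIGLEC12 had a mean of 0.0795 TPM with the empty vector and 1667 TPM with Siglec-XII, and the ranges were far apart (p = 0.0286, exact permutation test, two-sided, at its lower limit for groups of 4). TPM corrects for transcript length and scales every sample to the same total, so levels of different genes can be compared. The line label was checked on marker lists, and most colon markers went against it. Of 14 colon epithelium markers, only CDX1 and CDX2 reached 1 TPM in at least 4 samples, 9 were under 1 TPM in every sample, and KRT20 and FABP1 were listed at 0 throughout, whereas all 5 general epithelial markers were abundant, with sums of 8257 to 9230 TPM with the empty vector and 9840 to 10220 TPM with Siglec-XII. The summed level of the colon list was 164 to 187 TPM with the empty vector and 191 to 216 TPM with Siglec-XII. Of 12 trophoblast markers, 10 reached 1 TPM in at least 4 samples, led by XAGE2, GATA3 and HSD3B1, with sums of 1727 to 1784 TPM and 1607 to 1652 TPM. The list was uneven, since CGB5 and ELF5 were under 1 TPM in every sample. CGA, PSG1, ERVW-1 and ERVFRD-1 were near the limit, with group means of 0.588 to 1.40 TPM. Of 10 leukocyte markers, 8 were under 1 TPM in every sample, with sums of 2.91 to 5.01 TPM and 3.12 to 5.47 TPM, and MS4A1 was listed at 0. Of 8 fibroblast markers, 5 reached the limit (sums of 70.8 to 87.0 TPM and 83.3 to 89.2 TPM), and THY1 was listed at 0. The sums of the colon, general epithelial and trophoblast lists did not overlap between groups. The colon sum rested mostly on CDX1 (mean 139 TPM with the empty vector and 156 TPM with Siglec-XII). KRT8 (3903 and 4617 TPM) and KRT18 (2947 and 3419 TPM) made up most of the epithelial sum. XAGE2, GATA3 and HSD3B1 made up most of the trophoblast sum, so these sums describe a few genes more than their lists. No marker that reached 1 TPM in at least 4 samples had an adjusted p under 0.05, and the others were not tested. The part of such differences in the results below was not tested, and the cells are named below only by their plasmid.

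Levels of the 10 genes spanned from 0.0927 to 109 TPM over the samples. With the empty vector the order from high to low was IRF3 (mean 100.0 TPM), TBK1 (24.4 TPM), MAVS (14.7 TPM), CGAS (12.4 TPM), IKBKE (11.9 TPM), DDX58 (6.20 TPM), IFIH1 (1.37 TPM), TMEM173 (0.439 TPM), TLR3 (0.224 TPM) and DHX58 (0.213 TPM). The ranges of CGAS and IKBKE overlapped, as did those of TMEM173 and TLR3 and of TLR3 and DHX58, whereas every other pair of neighbours was separated. With Siglec-XII the first 3 places and those of DDX58 and IFIH1 were the same. IKBKE (13.2 TPM) then stood above CGAS (12.05 TPM), with the lowest IKBKE sample (12.13 TPM) just above the highest CGAS sample (12.1 TPM), and DHX58 (0.529 TPM) stood above TMEM173 (0.399 TPM) and TLR3 (0.311 TPM) with overlapping ranges. IRF3, TBK1 and MAVS thus had more transcripts than any sensor among the 10 genes, and TMEM173, TLR3 and DHX58 never reached 1 TPM.

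**Figure D1:**
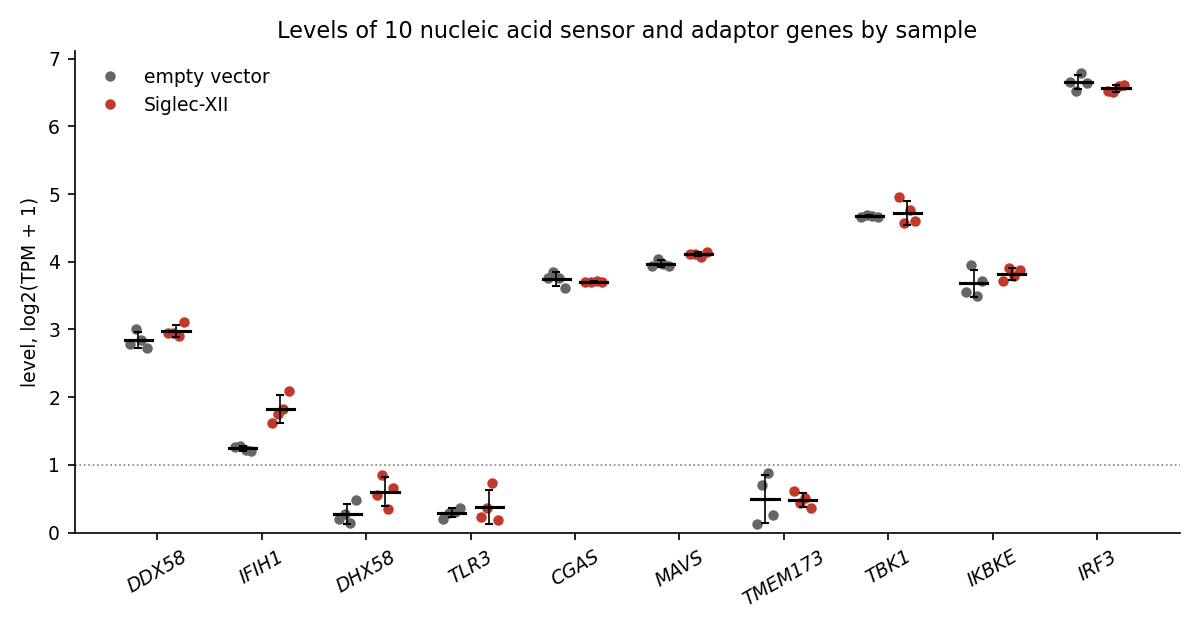
Level of each gene as log2(TPM + 1) in every sample, with the empty vector in grey and Siglec-XII in red; horizontal bars are group means, error bars 1 SD (n = 4), and the dotted line marks 1 TPM. On this scale IFIH1 is the gene whose group means stand furthest apart, and DHX58, TLR3 and TMEM173 lie below the dotted line in all 8 samples.

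Whether the sensing route differs with Siglec-XII was asked by limma on log2(TPM + 1) over 15590 entries, those at 1 TPM or more in 4 or more samples, with Benjamini-Hochberg adjustment over all of them. Of the 10 genes, 7 passed this filter, and 0 of the 7 had an adjusted p under 0.05, where 0.648% of all tested entries did. IFIH1 and MAVS, 2 of the 7, had an unadjusted p of 0.05 or less, as did 16.5% of all entries. The same 2 genes had every Siglec-XII sample above every empty vector sample. Over all entries 10.8% had groups without overlap, and 9.17% were so separated with Siglec-XII higher. Of the 7, 5 had a higher mean and 2 a lower mean with Siglec-XII, where 10620 of all 15590 entries were higher and 4970 lower, and the median log2 difference was 0.13, against 0.07 over all tested entries. None of the 7 differed by 2-fold.

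**Figure D2:**
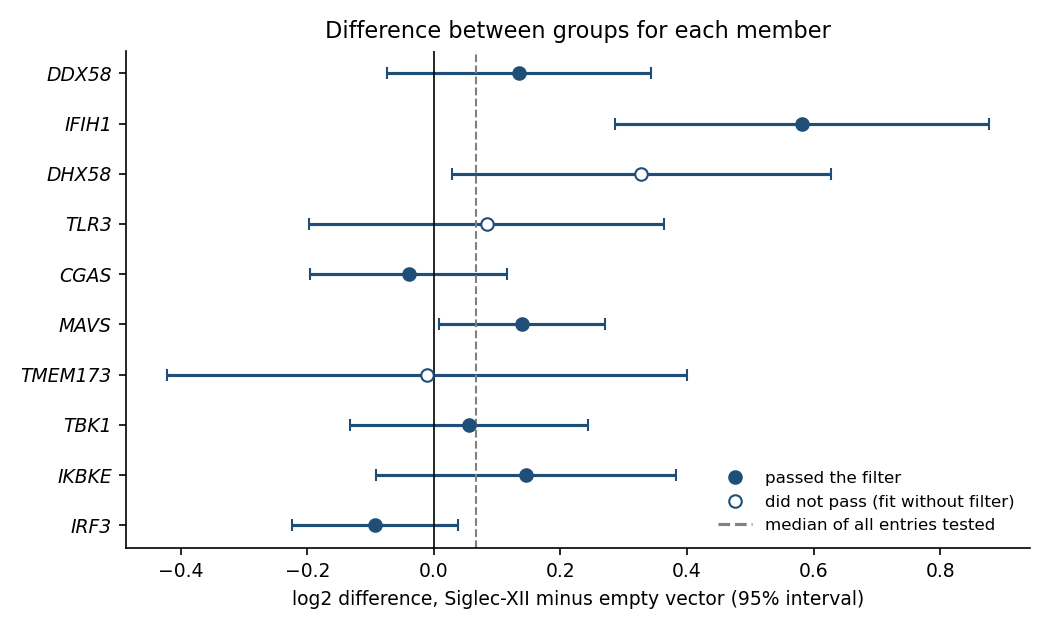
Log2 difference, Siglec-XII minus empty vector, on the log2(TPM + 1) scale with its 95% interval from limma; filled points passed the filter on low values, open points come from the fit without a filter, and the dashed line is the median of all tested entries, 0.07. The intervals of IFIH1, MAVS and DHX58 lie above 0, and IFIH1 is the only gene of the 10 whose interval lies above the dashed line.

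Of the RIG-I-like receptors, IFIH1 had the largest difference on the log2(TPM + 1) scale, whereas DHX58, at under 1 TPM, had the larger ratio of mean TPM. MDA5, its product, recognizes long double-stranded RNA. IFIH1 (ENSG00000115267, chromosome 2, 163123584 to 163175194 in GRCh37, minus strand) stood at 1.40, 1.42, 1.33 and 1.30 TPM in empty vector replicates 1 to 4 and at 2.07, 2.37, 2.56 and 3.28 TPM in Siglec-XII replicates 1 to 4. All Siglec-XII samples were above all empty vector samples, and they were more spread. On the log2 scale the empty vector level was 1.24 ± 0.03 (SD, n = 4) and the Siglec-XII level 1.82 ± 0.20 (SD, n = 4), which differ by 0.58 with a 95% interval of 0.29 to 0.88. In TPM the mean was 1.88-fold higher. The limma p was 0.00150 unadjusted and 0.0978 adjusted, which misses the threshold, and 1.53% of all tested entries had a p at or below it. The adjusted p ran from 0.0734 to 0.222 over the 17 alternatives that tested the gene and was under 0.05 in 0 of them. In bulk RNA, more cells expressing a gene and more RNA of it per cell cannot be told apart.

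DDX58 (ENSG00000107201, chromosome 9, 32455300 to 32526206, minus strand) encodes RIG-I, which senses short RNA with a triphosphate end. It stood at 5.93, 7.05, 6.18 and 5.64 TPM with the empty vector and at 6.73, 6.68, 6.51 and 7.65 TPM with Siglec-XII. The groups overlapped through empty vector replicate 2. The log2 difference was 0.13 with a 95% interval of -0.07 to 0.34 (limma adjusted p = 0.502). It ran from 0.0786 with quantile normalization to 0.1894 without empty vector replicate 2. Within each sample the ratio of IFIH1 to DDX58 in TPM was 0.202 to 0.237 with the empty vector and 0.307 to 0.429 with Siglec-XII. MDA5 transcripts thus stayed fewer than RIG-I transcripts in every sample, by a smaller margin with Siglec-XII.

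LGP2, the product of DHX58, lacks the signalling domains of the other receptors and modulates them. DHX58 (ENSG00000108771, chromosome 17, 40253422 to 40264732, minus strand) did not pass the filter. It stood at 0.150, 0.205, 0.0998 and 0.398 TPM with the empty vector and at 0.462, 0.809, 0.271 and 0.574 TPM with Siglec-XII. Siglec-XII replicate 3 lay below empty vector replicate 4, and the other 3 Siglec-XII samples lay above every empty vector sample. In the fit without a filter, over 39568 entries, the log2 difference was 0.33 with a 95% interval of 0.03 to 0.63 (limma unadjusted p = 0.0357, adjusted p = 0.494). In TPM the mean was 2.48-fold higher, whereas the log2(TPM + 1) scale gives a smaller fold for a gene this low. Read depth is unknown, so how much of either comes from counting few reads cannot be judged.

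Since several of these genes are known interferon targets, their promoters were searched for the core of the interferon-stimulated response element, taken as 2 copies of GAAA on the same strand with 2 bases between them. RefSeq promoter windows (GRCh38.p14, 250 bases before to 50 after the start) were at hand for 6 of the 10 genes, DDX58, IFIH1, MAVS, TLR3, TBK1 and IKBKE, and not for DHX58, CGAS, TMEM173 and IRF3. IFIH1 and TLR3 held a match and the other 4 did not, where 3.57% of 35116 windows held one on either strand. The 250 bases before the start of IFIH1, the gene with the lowest p of the 10, and of DDX58, the other RIG-I-like receptor with a window, are given 5′ to 3′ on the strand of the gene, with the copies of a matched core in capitals (TTTC is GAAA on the other strand).
IFIH1, chr2:162318685-162318934, minus strand: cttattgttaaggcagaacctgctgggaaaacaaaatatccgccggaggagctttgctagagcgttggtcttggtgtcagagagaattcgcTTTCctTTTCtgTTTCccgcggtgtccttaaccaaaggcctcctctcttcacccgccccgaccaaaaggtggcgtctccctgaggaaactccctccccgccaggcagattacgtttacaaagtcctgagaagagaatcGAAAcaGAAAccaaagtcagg
DDX58, chr9:32526197-32526446, minus strand: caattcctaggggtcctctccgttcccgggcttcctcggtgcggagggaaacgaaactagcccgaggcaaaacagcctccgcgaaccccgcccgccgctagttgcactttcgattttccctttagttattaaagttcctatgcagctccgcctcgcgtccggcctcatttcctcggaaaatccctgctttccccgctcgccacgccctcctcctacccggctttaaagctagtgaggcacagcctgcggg
IFIH1 had 3 matches, an overlapping pair on the other strand at positions -159 to -144 from the start and 1 on its own strand at positions -21 to -12. In TLR3 the match spanned the start, at positions -4 to 6, shown with 8 bases on either side.
TLR3, chr4:186069144-186069169, plus strand: agctttacTTTCacTTTCgagagtgc
A match describes these letters only.

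TLR3 (ENSG00000164342, chromosome 4, 186990065 to 187009227, plus strand) stood at 0.151, 0.225, 0.240 and 0.281 TPM with the empty vector and at 0.167, 0.289, 0.653 and 0.134 TPM with Siglec-XII. Siglec-XII replicate 3 was the highest of the 8 samples and replicate 4 the lowest, so the groups overlapped fully. In the fit without a filter the log2 difference was 0.08 with a 95% interval of -0.20 to 0.36 (limma adjusted p = 0.821).

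The DNA branch was uneven in its parts. CGAS (ENSG00000164430, chromosome 6, 74123238 to 74162020, minus strand) stood at 12.6, 13.4, 12.5 and 11.3 TPM with the empty vector and at 12.05, 12.07, 12.1 and 11.98 TPM with Siglec-XII. The Siglec-XII samples lay inside the range of the empty vector samples and varied little, with an SD of 0.0059 on the log2 scale, the smallest of the tested members. The log2 difference was -0.04 with a 95% interval of -0.20 to 0.12 (limma adjusted p = 0.814). It ran from -0.1067 with quantile normalization to -0.006 without empty vector replicate 2. TMEM173 (ENSG00000184584, chromosome 5, 138855118 to 138862520, minus strand), which encodes STING, stood at 0.0927, 0.631, 0.837 and 0.195 TPM with the empty vector and at 0.536, 0.348, 0.423 and 0.288 TPM with Siglec-XII. The empty vector samples spanned the whole range of the Siglec-XII samples. Its log2 difference in the fit without a filter was -0.01 with a wide 95% interval of -0.42 to 0.40. The transcript ratio of CGAS to TMEM173 ran from 14.95 to 136.0 with the empty vector and from 22.5 to 41.6 with Siglec-XII, so the enzyme of this branch had more transcripts than its adaptor in every sample.

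MAVS, the adaptor of RIG-I and MDA5, was the other gene without overlap. MAVS (ENSG00000088888, chromosome 20, 3827446 to 3856770, plus strand) stood at 14.3, 15.5, 14.6 and 14.4 TPM with the empty vector and at 16.3, 16.3, 15.9 and 16.7 TPM with Siglec-XII. The highest empty vector sample, replicate 2, was close below the lowest Siglec-XII sample, replicate 3. The log2 level was 3.97 ± 0.05 (SD, n = 4) and 4.11 ± 0.03 (SD, n = 4), a difference of 0.14 with a 95% interval of 0.01 to 0.27 (limma unadjusted p = 0.0397, adjusted p = 0.279). A larger difference was found for 30.1% of all tested entries. The difference was 0.07 with quantile normalization and 0.08 with equal upper quartiles, and the unadjusted p was 0.05 or less in 6 of 18 alternatives.

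The kinases TBK1 and IKKε phosphorylate both the adaptors and IRF3. TBK1 (ENSG00000183735, chromosome 12, 64845870 to 64895894, plus strand) stood at 24.2, 24.7, 24.6 and 24.2 TPM with the empty vector and at 30.1, 22.9, 26.1 and 23.4 TPM with Siglec-XII. The empty vector samples were nearly equal, and Siglec-XII had both the highest and the lowest sample. The log2 difference of 0.06 (95% interval -0.13 to 0.24, limma adjusted p = 0.782) changed sign without Siglec-XII replicate 1, to -0.02, with quantile normalization, also to -0.02, and with equal upper quartiles, to -0.0041. IKBKE (ENSG00000263528, chromosome 1, 206643819 to 206670222, plus strand) stood at 10.8, 14.4, 10.3 and 12.2 TPM with the empty vector and at 12.1, 14.1, 12.8 and 13.7 TPM with Siglec-XII. Empty vector replicate 2 was the highest of all samples. The log2 difference was 0.14 with a 95% interval of -0.09 to 0.38 (limma adjusted p = 0.524). It was 0.2346 without empty vector replicate 2 (unadjusted p = 0.0262) and 0.0837 without empty vector replicate 3. The ratio of TBK1 to IKBKE in TPM was 1.71 to 2.39 with the empty vector and 1.63 to 2.48 with Siglec-XII, with overlapping ranges.

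IRF3 (ENSG00000126456, chromosome 19, 50162826 to 50169132, minus strand) was the most abundant of the 10 transcripts. It stood at 100.1, 91.4, 109 and 99.3 TPM with the empty vector and at 91.0, 90.3, 95.8 and 97.3 TPM with Siglec-XII. The Siglec-XII samples lay in the lower part of the empty vector range or just under it. The log2 difference was -0.09 with a 95% interval of -0.22 to 0.04 (limma adjusted p = 0.458). It ran from -0.1544 with equal upper quartiles to -0.0501 without empty vector replicate 3, and the unadjusted p was 0.05 or less in 4 of 18 alternatives. IRF3 shares 734 bases with BCL2L12 on the opposite strand, which stood at 53.6 to 76.2 TPM. The kit kept strand, but the strand setting of the quantification is not given in the sources used here, so reads from the shared bases may be assigned to either gene. The genes that overlap CGAS, TBK1 and IKBKE on the opposite strand stayed at or below 0.402 TPM where the table lists them. On the same strand, the annotation has another gene over 70886 bases of DDX58 and one over 4147 bases of TBK1. Neither has an entry of its own in the expression data, so the levels of DDX58 and TBK1 may include reads of these.

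The entries most like IFIH1 were sought over the 8 samples by Pearson correlation of log2 levels among 12080 other protein-coding entries tested. They were MTMR3 (r = 0.990), NUCB1 (r = 0.986), RAB1B (r = 0.984), ELK1 (r = 0.983) and CTNNBL1 (r = 0.982). The 8 points share the 2 groups and the scaling of each library, so this is a description only. The log2 differences of these 5 genes ran from 0.15 to 0.28, smaller than that of IFIH1, and none had an adjusted p under 0.05.

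The rest of the pathway was read from 7 lists with 100 genes, of which 79 passed the filter. Of these 79, 3 had an adjusted p under 0.05, all higher with Siglec-XII and all from the list of early IRF3 targets, and these 3 reached 1 TPM with Siglec-XII only. The unadjusted p was 0.05 or less for 22 of the 79, all higher, and 16 had Siglec-XII above the empty vector without overlap. Over all tested entries, 0.648% had an adjusted p under 0.05 and 16.5% an unadjusted p of 0.05 or less. The share separated with Siglec-XII higher was 9.17%. The lists were written with earlier results of these data known, so the counts are a description only. The median log2 difference of the 79 was 0.10, against 0.07 over all tested entries.

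**Figure D3:**
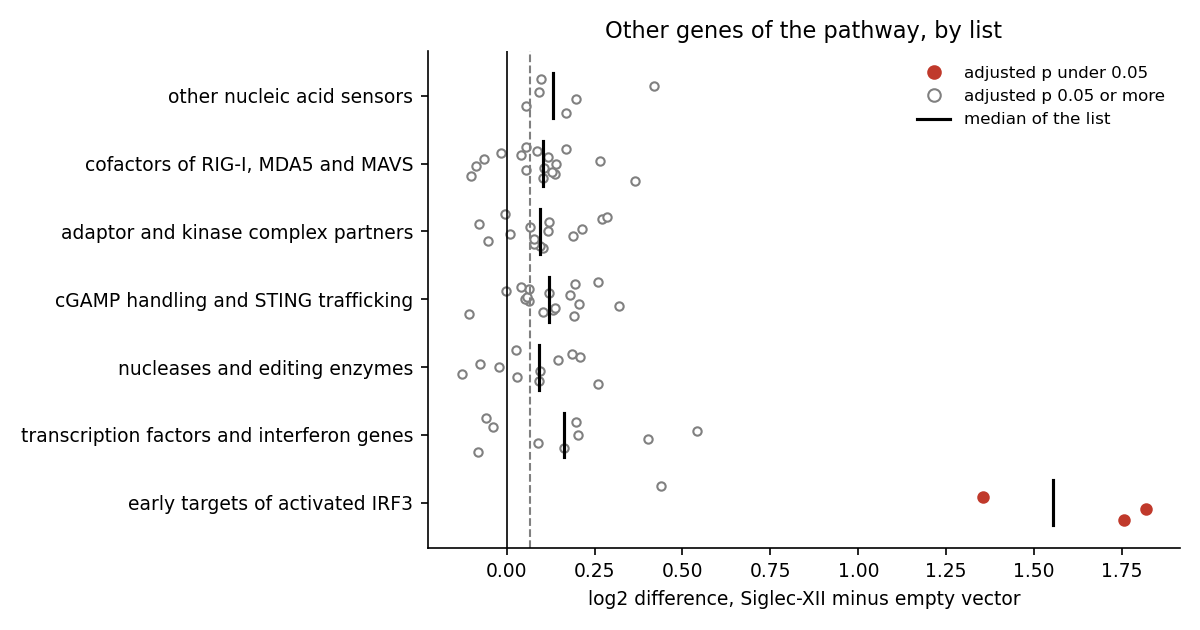
Log2 difference, Siglec-XII minus empty vector, of the 79 tested pathway genes in 7 lists; each point is a gene, red points have a limma adjusted p under 0.05, black bars are list medians, the solid line is 0 and the dashed line is the median of all tested entries. The 3 red points are IFIT1, IFIT2 and IFIT3, and the 6 other list medians lie between 0.09 and 0.16.

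Among other nucleic acid sensors, 6 of 14 genes passed the filter, 6 were higher with Siglec-XII and 0 were called, with a median log2 difference of 0.13. OAS3, which makes the activator of RNase L when it binds double-stranded RNA, went from 6.60 to 9.04 TPM (log2 difference 0.42, limma adjusted p = 0.162), without overlap. The helicase DHX9 had a log2 difference of 0.20 (adjusted p = 0.112) and the DNA sensor DDX41 of 0.17 (adjusted p = 0.226), both without overlap. EIF2AK2, the kinase PKR that halts translation on double-stranded RNA, stood at 39.4 and 42.0 TPM with overlapping groups. DDX60, a helicase that assists RIG-I, did not pass the filter and stood at 0.147 and 0.448 TPM on average, without overlap. For genes that did not pass, the share of entries so separated was not computed. ZBP1, AIM2, OAS2, TLR8 and TLR9 were under 1 TPM in every sample.

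Of the cofactors of RIG-I, MDA5 and MAVS, 17 of 18 genes passed the filter, 13 with a higher and 4 with a lower mean, and 0 were called (median log2 difference 0.10). TRIM25, a ubiquitin ligase that promotes RIG-I signalling, went from 27.5 to 33.3 TPM without overlap (log2 difference 0.27, limma adjusted p = 0.101). CYLD, a deubiquitinase that restrains it, had a log2 difference of 0.36 (adjusted p = 0.156) with overlapping groups. PCBP2, which targets MAVS for degradation, and PPP1CC, a phosphatase that acts on RIG-I and MDA5, had differences of 0.13 and 0.11 without overlap. RNF135, the ubiquitin ligase Riplet, was under 1 TPM in every sample.

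All 15 partners of the adaptors and kinases passed the filter, 12 with a higher and 3 with a lower mean, and 0 were called (median 0.10). TBKBP1, a scaffold of TBK1, and TRAF5 had log2 differences of 0.21 and 0.29 (limma adjusted p = 0.216 and 0.266), both with overlapping groups. TICAM1, the TLR3 adaptor TRIF, stood at 5.93 and 6.24 TPM, so that the adaptor was at a higher transcript level than its receptor TLR3 in either group.

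For cGAMP handling and STING trafficking, 17 of 18 genes passed the filter, 15 with a higher and 2 with a lower mean, and 0 were called (median 0.12). LRRC8A, a subunit of channels that can carry cGAMP, went from 15.84 to 20.02 TPM without overlap (log2 difference 0.32, limma adjusted p = 0.0758). ZDHHC3 and ZDHHC7, enzymes that attach palmitate to STING, had differences of 0.20 and 0.26, and SURF4, which returns STING to the endoplasmic reticulum, of 0.18, each without overlap. ZDHHC3 and SURF4 stand on 2 entries each, so their TPM may be divided. ENPP1, which degrades cGAMP outside the cell, had a difference of 0.10 (adjusted p = 0.731).

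Of the nucleases and editing enzymes that keep self nucleic acid from the sensors, 11 of 12 passed the filter, 8 with a higher and 3 with a lower mean, and 0 were called (median 0.09). ADAR edits adenosine in double-stranded RNA and so keeps it from MDA5. It stood at 48.4, 53.8, 53.1 and 53.2 TPM with the empty vector and at 63.65, 59.4, 63.6 and 63.8 TPM with Siglec-XII. The groups did not overlap, and the log2 difference was 0.26 with a 95% interval of 0.15 to 0.38 (limma adjusted p = 0.0719). SAMHD1, which degrades the building blocks of DNA, had a difference of 0.21 (adjusted p = 0.174). TREX1, the main cytosolic DNA exonuclease, was under 1 TPM in every sample.

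Downstream, 9 of 15 transcription factor and interferon genes passed the filter, 6 with a higher and 3 with a lower mean, and 0 were called (median 0.16). IRF9, the DNA-binding part of the interferon response factor ISGF3, went from 2.96 to 4.70 TPM without overlap (log2 difference 0.54, limma adjusted p = 0.144), and it stands on 2 entries. IRF7, a relative of IRF3 that amplifies interferon production, had a difference of 0.20 (adjusted p = 0.311) and also stands on 2 entries. The interferon genes were all low and none passed the filter. IFNL1, a type III interferon, stood at 0.361, 0.238, 0.0838 and 0.740 TPM with the empty vector and at 1.05, 0.933, 0.857 and 0.927 TPM with Siglec-XII. These groups did not overlap, but the share of entries so separated was not computed for genes that did not pass the filter. In the fit without a filter the log2 difference of IFNL1 was 0.54 (limma adjusted p = 0.363). IFNB1 was listed at 0 in all 4 empty vector samples and in Siglec-XII replicate 2, and at 0.0951, 0.155 and 0.420 TPM in the other 3. IFNL2 and IFNL3 had overlapping groups, and IFNA1 was listed at 0 in every sample.

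**Figure D4:**
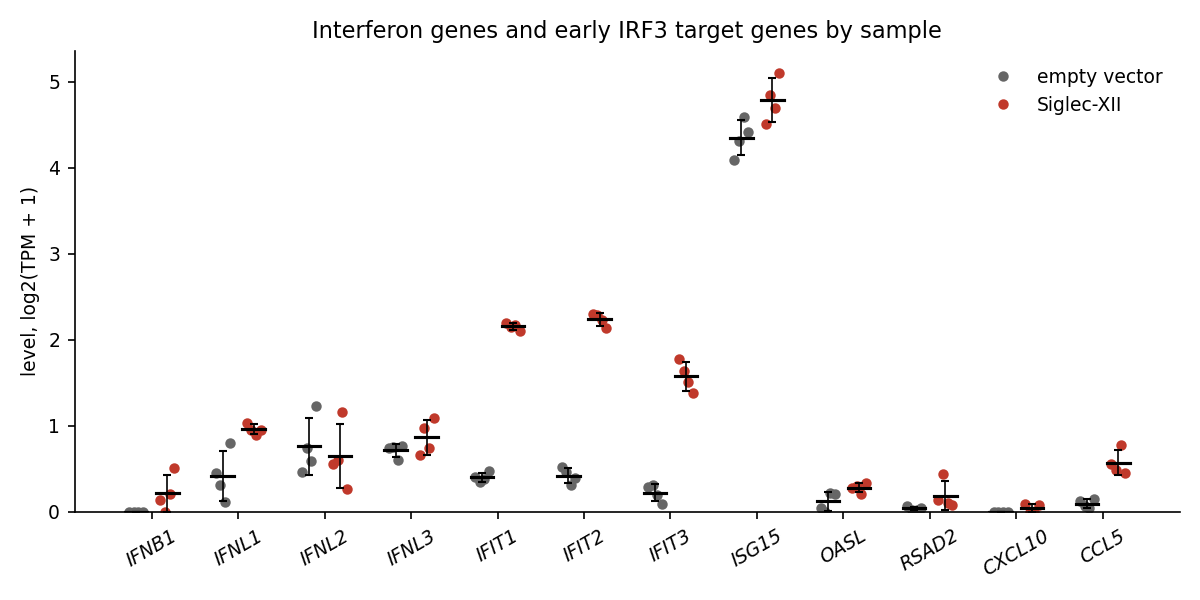
Levels of 4 interferon genes and 8 early IRF3 target genes as log2(TPM + 1) in every sample, with the empty vector in grey and Siglec-XII in red; horizontal bars are group means and error bars 1 SD (n = 4). IFIT1, IFIT2 and IFIT3 stand apart between groups at low levels, ISG15 is the most abundant in both, and IFNB1 and CXCL10 are listed at 0 in every empty vector sample.

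Of the 8 early targets of activated IRF3, 4 passed the filter and 3 were called, all higher, where 0.648% of all tested entries were called. The name of the list comes from prior knowledge, and whether IRF3 acted on these genes here was not tested. IFIT1, IFIT2 and IFIT3, which bind foreign RNA or the proteins that do so, rose by 1.75, 1.82 and 1.35 on the log2 scale (limma adjusted p = 0.000124, 0.000124 and 0.00237). All empty vector samples were at 0.4324 TPM or less, so the 3 genes passed the filter only through the group in which they were high. In the fit without a filter their adjusted p was 0.00293, 0.00293 and 0.0157. The size depends on the scale, being 3.09, 3.14 and 3.01 with a pseudocount of 0.1, and the ratios of mean TPM were 10.79, 10.94 and 11.98. These genes were known from earlier results of the same data and are not independent evidence. ISG15, a ubiquitin-like protein, stood at 19.5 and 27.0 TPM (log2 difference 0.44, adjusted p = 0.180), with overlapping groups. CCL5, a chemokine, did not pass the filter, and stood at 0.0907, 0.0453, 0.0271 and 0.107 TPM with the empty vector and at 0.472, 0.395, 0.715 and 0.370 TPM with Siglec-XII, without overlap (limma adjusted p = 0.132 in the fit without a filter). CCL5 stands on 2 entries, so its TPM may be divided. OASL, RSAD2 and CXCL10 were under 1 TPM in every sample. RSAD2 had groups without overlap (means of 0.0269 and 0.144 TPM), whereas those of OASL and CXCL10 overlapped. As for CCL5, the share of entries so separated was not computed at such levels.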

How the data were processed

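RNA was read from 8 samples, 4 per group, with groups and replicate numbers taken from the sample titles. The authors deposited 1 table of log2(TPM + 1) per gene entry, made with kallisto (0.45.0 per the submitters' processing notes) against hg19 per the methods. Each column summed to 1000000 TPM, so read depth is unknown and neither count tests nor counting intervals were possible. The methods name a different kallisto version and a further counting step, and an mRNA kit where the labels name a total RNA kit. The comparison used R 4.3.3 and limma 3.58.1 (lmFit, eBayes with trend), checked on simulated data, over the 15590 entries at 1 TPM or more in at least 4 samples. Genes under that limit were read from a fit without it, and shares of entries without overlap were computed only over entries that passed it. A fold on this scale understates changes of low genes. Where a symbol repeats, the entry of highest mean was used. The named genes are the members, SIGLEC12, genes of the lists and the 5 entries most like IFIH1. Members and lists were chosen with earlier results of these data known. Positions are from GENCODE on GRCh37. Figures used matplotlib 3.10.9 in Python 3.11.15. Alternatives were another pseudocount (0.1), 2 filters, 3 scalings, small structured RNAs left out, a replicate block, eBayes without trend, array weights and each sample left out.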

Additional observations from a re-analysis of the deposited data

How the results depend on the processing

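None of the 10 genes had an adjusted p under 0.05 where it was tested. DHX58, TLR3 and TMEM173 were tested only with no filter, IFIH1 in 17 of 18 alternatives and the other 6 in all 18. The limma count of called entries, 101, became 51 with no filter, 33 with small structured RNAs left out and 54 without the trend, and ran from 49 to 159 with 1 sample left out, the ends being without empty vector replicate 3 and replicate 2. The 3 called pathway genes became 0 with a mean of at least 5 TPM required, since IFIT1, IFIT2 and IFIT3 are then not tested. Between 1 and 4 of the genes tested had an unadjusted p of 0.05 or less, the 4 without empty vector replicate 2. The TBK1 difference became -0.0194 with quantile normalization, -0.0041 with equal upper quartiles and -0.0223 without Siglec-XII replicate 1, the low end of a range up to 0.1048 with 1 sample left out, and the cause was not tested. None of the other 6 tested genes of the 10 changed direction. The median over all entries went from 0.07 to 0.01 with quantile normalization. With 1 mismatch allowed, 4 of 6 promoter windows held the response element core, as did 33% of all windows. With the replicate number as a block, 69 entries and 0 of the 7 genes tested were called. Same-numbered samples had deviation correlations of -0.0742 to 0.0591, and 4 of 8 correlated best with their own number, so the numbers were not taken as pairs. The table holds no read depth, which limits what can be said of genes under 1 TPM.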
